A study of Mus musculus with 2931 samples.

Results

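The genes described are the axon guidance families in mouse lung endothelium: semaphorins and their plexin receptors, ephrins and Eph receptors, Slits and Robo receptors, and netrins and Unc5 receptors. All rows of the count table whose gene symbol carries the name of one of these families were taken, which gave 65 of 18072 genes. They comprise 20 semaphorins (classes 3 to 7), 9 plexins, 8 ephrins, 13 Eph receptors, 3 Slits, 4 Robo receptors, 4 Unc5 receptors and 4 netrins (Ntn1, Ntn4 and the netrin-G genes Ntng1 and Ntng2). The rule uses gene symbols and no measured value.

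These families were first described as cues that steer growing axons, and the same proteins act on vessels. Semaphorins are ligands, secreted in class 3 and bound to the membrane in classes 4 to 7, and plexins with or without neuropilins are their receptors. Ephrins and Eph receptors sit on the membranes of neighbouring cells and signal in both directions; Efnb2 (ephrin-B2) is a classical marker of arteries and its receptor Ephb4 of veins. Slits bind Robo receptors, among which Robo4 is largely restricted to endothelium, and netrins bind Dcc and Unc5 receptors, among which Unc5b is known from arteries and from the tip cells of growing vessels.

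The study sequenced 2931 single cells of distal lung, labelled endothelial (EC, the inner lining of vessels), by a plate-based Tn5 transposase method. They came from 10 mice in 5 groups: before birth at E18.5 and postnatal days 1, 7 and 21 (P1, P7, P21) in normal air, and P7 with the treatment label hyperoxia, meaning raised oxygen, whose level and duration are not in the labels. Each group had 1 female and 1 male mouse name, and strain and genotype are not given; whether a name stands for 1 animal or a pool is not stated, so that p-values measure the spread between these mouse names. The cells carry 10 subtype labels from the authors, which were joined into classes: Car4- capillaries (Early and Late), Car4+ capillaries, arterial EC (I and II), venous EC, lymphatic EC, proliferative EC and, at E18.5, nonproliferative embryonic EC. Car4 encodes a carbonic anhydrase that marks one type of lung capillary.

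Reads were summed per mouse and class where a mouse had at least 8 cells, and levels are given as CPM, reads scaled to a total of 1000000 in that sum. The sums held between 2640285 reads (arterial EC of the male P7 mouse, 10 cells) and 195034861 reads (Car4- capillaries of the female P21 mouse, 272 cells), so that 3 reads equal between 0.0154 and 1.14 CPM. Levels of Car4- capillaries leave out the 13 such cells of the female E18.5 mouse, since E18.5 has its own capillary label; in these Robo4 had 623 CPM, Efnb2 0.472 CPM and Sema3g 0 CPM, outside the range of the 6 later mice. The endothelial markers summed to at least 5364 CPM in every class, and by class medians each class with a list of its own (embryonic EC have none) was highest for it, apart from the Car4- capillary list, which was as high in venous EC (median 5542 CPM) as in Car4- capillaries (5268 CPM). In the male P1 mouse the venous list was as high in arterial EC (1629 CPM) as in venous EC (1554 CPM). The summed fibroblast, mural, epithelial, immune, mesothelial and neural marker lists reached at most 305 CPM in any mouse and class. Fewer expressing cells and less RNA per cell cannot be told apart in such sums. The guidance genes together took between 2048 CPM (male E18.5 mouse) and 4050 CPM (female P21 mouse) of all reads of a mouse.

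The artery and vein genes of these families can be read against their promoters. Efnb2, Ephb4 and Sema3g are shown because they marked the arterial to venous axis below. RefSeq's promoter table (GRCm38.p6) held 56 of the 65 genes. The 200 bases before each start site are printed 5′ to 3′ on the gene's strand, with matches to the CCAAT box (CCAAT) and the GC box (GGGCGG) on either strand in capitals; these letters do not overlap with each other here. Efnb2 lies on the minus strand of chromosome 8 (chr8:8661243-8661442), Ephb4 on the plus strand of chromosome 5 (chr5:137349909-137350108) and Sema3g on the plus strand of chromosome 14 (chr14:31217673-31217872).
Efnb2: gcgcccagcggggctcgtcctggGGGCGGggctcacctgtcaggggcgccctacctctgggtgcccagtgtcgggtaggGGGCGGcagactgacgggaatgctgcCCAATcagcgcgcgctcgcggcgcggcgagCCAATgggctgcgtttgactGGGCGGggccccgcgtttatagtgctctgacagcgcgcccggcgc
Ephb4: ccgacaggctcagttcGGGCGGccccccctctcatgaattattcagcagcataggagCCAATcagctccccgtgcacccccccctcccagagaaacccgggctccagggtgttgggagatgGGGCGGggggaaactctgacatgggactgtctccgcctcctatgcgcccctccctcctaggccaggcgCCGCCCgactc
Sema3g: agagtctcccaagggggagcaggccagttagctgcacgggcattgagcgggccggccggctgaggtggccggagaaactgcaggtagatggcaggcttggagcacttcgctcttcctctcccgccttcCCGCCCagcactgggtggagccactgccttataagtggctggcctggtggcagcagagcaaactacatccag
The Efnb2 promoter held 3 GC boxes and 2 CCAAT boxes, that of Ephb4 3 and 1, and that of Sema3g 1 GC box. A GC box was present in 31.0% of all 32851 promoter windows of this length and in 50 of the 72 windows of the guidance genes (69.4%), and a CCAAT box in 29.3% and 23.6%. The core letters bound by RBPJ, the factor of Notch signalling (TGGGAA), and by SOX factors (ACAAT) were searched on both strands and were not in these 3 windows. They were in 17.3% and 22.7% of all windows and in 15.3% and 13.9% of those of the guidance genes. Most windows of this length lack them, so their absence here says nothing on control by these factors, which was not tested.

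Of the 65 genes, 45 reached a mean of 5 CPM in at least 1 class of the normal-air mice and 20 did not. Between 26 (lymphatic EC) and 32 (venous EC) reached it per class. The 20 low genes included 7 of the 13 Eph receptors (Epha3, Epha5, Epha8, Epha10, Ephb2, Ephb3 and Ephb6), and 5 genes stayed under 1 CPM in every class (Sema4f, Epha8, Unc5d, Ephb2 and Ephb3).

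**Figure D1:**
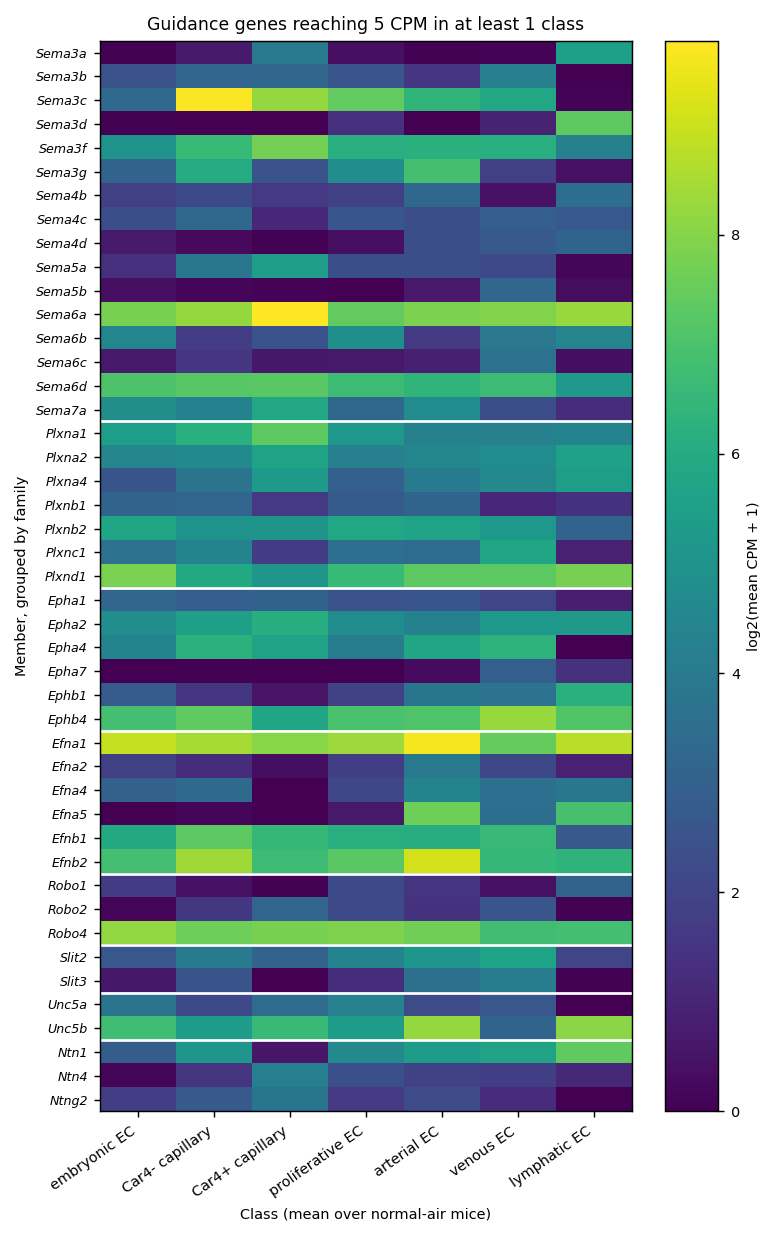
Mean level of the 45 guidance genes that reached 5 CPM, as log2(mean CPM + 1) by colour, with genes in rows grouped by family and classes in columns (normal-air mice; 2 mice for embryonic EC, 3 for lymphatic EC, 6 or 7 for the others). Efna1 is bright in every column, Sema3c is brightest in Car4- capillaries (831 CPM) and Sema6a in Car4+ capillaries (871 CPM). The columns differ in age. Both Car4 capillary columns hold P1, P7 and P21, and arterial and proliferative EC hold E18.5, P1 and P7. Venous EC hold these ages and the female P21 mouse, lymphatic EC E18.5 and P1, and embryonic EC E18.5.

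Among the ligands, Efna1 (ephrin-A1, a membrane-anchored ligand of EphA receptors) had the highest level per kilobase of exon among the 65 genes in every class, from 96.7 CPM per kb in venous EC to 432 CPM per kb in arterial EC. Sema3c (a secreted class 3 semaphorin) followed in Car4- capillaries with 116 CPM per kb, and Sema6a (a transmembrane semaphorin that binds class A plexins) in Car4+ capillaries with 99.3 CPM per kb. In CPM, Sema3c had 831 ± 573 (SD, n = 6 mice) in Car4- capillaries and Sema6a 871 ± 258 (n = 6) in Car4+ capillaries. Efnb2 was the next ligand in arterial EC, at 82.8 CPM per kb. Netrins and Slits were low. Ntn1, which encodes the secreted netrin-1, led its family outside Car4+ capillaries, with at most 26.7 CPM per kb (lymphatic EC). In Car4+ capillaries Ntn4 had 4.56 and Ntng2 3.24 CPM per kb, with overlapping ranges in CPM, and Ntn1 had 0.0815 CPM per kb. The highest Slit level was 2.70 CPM per kb, that of Slit3 in venous EC.

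Among the receptors, each family was carried by 1 or a few genes. Robo4 had between 20.6 CPM per kb (venous EC) and 54.1 CPM per kb (embryonic EC), whereas Robo1, Robo2 and Robo3 had at most 0.478 CPM per kb in any class. Ephb4 led the Eph receptors in every class apart from Car4+ capillaries, where Epha2 had 14.1 and Ephb4 11.7 CPM per kb, with overlapping ranges in CPM over the mice. Plxnd1, a plexin known from endothelium, led the plexins in 6 of 7 classes with up to 30.5 CPM per kb (embryonic EC), and Plxna1, a receptor for class 3 and class 6 semaphorins, led in Car4+ capillaries with 17.7 CPM per kb. In Car4- capillaries Plxna1 was close to Plxnd1, at 8.01 and 8.20 CPM per kb, with overlapping ranges in CPM. Unc5b led the Unc5 receptors in every class apart from venous EC, with up to 47.8 CPM per kb in arterial EC. In venous EC Unc5b and Unc5a were level at 1.26 and 1.25 CPM per kb, with overlapping ranges in CPM. These leaders are descriptions over the mice of each class, whose ages differ between classes, without a test between genes.

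Arterial and venous EC were compared to ask which guidance genes separate both sides of the circulation. The 6 mice of E18.5, P1 and P7 in normal air entered, and each mouse was its own block in the model. Efnb2, Sema3g, Efna1 and Unc5b were higher in arterial EC and Ephb4 and Sema3b were higher in venous EC, 6 of the 53 members tested (11.3%) by edgeR's quasi-likelihood test at an adjusted p under 0.05, where 2.5% of all 13816 genes were called. The subtype labels were made from these same cells, so a gene that helped to make them had to differ, and a class difference is no independent evidence. The median log2 difference was -0.22 over the tested members and -0.05 over all genes.

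Efnb2 had a lowest, median and highest level of 278, 511 and 938 CPM in arterial EC, and 12.6, 80.4 and 158 CPM in venous EC. Every arterial value lay above every venous value, with a log2 difference of 3.02 (SE 0.36, edgeR adjusted p 3.56e-05, higher in arterial EC of 6 of 6 mice). Ephb4, its receptor, had 59.7, 139 and 206 CPM in arterial EC and 232, 289 and 489 CPM in venous EC, again without overlap. Its log2 difference was -1.33 (SE 0.23, edgeR adjusted p 0.00212, 6 of 6 mice). The ligand thus had the larger log2 difference, without a test between both genes, and each gene had reads on both sides.

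Sema3g, a secreted class 3 semaphorin, had 65.8, 108 and 203 CPM in arterial EC and at most 8.08 CPM in venous EC, with 0 CPM in the male E18.5 mouse (edgeR adjusted p 0.00118, log2 difference 5.97, SE 0.96). Unc5b had 48.3, 298 and 555 CPM in arterial EC and at most 24.0 CPM in venous EC (edgeR adjusted p 0.00940, log2 difference 4.78, SE 0.98). For both genes arterial and venous mice did not overlap. Efna1 had 153, 852 and 1410 CPM in arterial EC and 76.0, 177 and 350 CPM in venous EC (log2 difference 2.01, SE 0.34, edgeR adjusted p 0.00200). The ranges of Efna1 overlapped, through the arterial EC of the female P7 mouse at 153 CPM, but arterial EC were higher within each of the 6 mice. Sema3b, another class 3 semaphorin, was at 0 CPM in the arterial EC of 5 mice and had 11.4 CPM in the male P7 mouse, against 0, 10.1 and 47.2 CPM in venous EC (edgeR adjusted p 0.0487). Its venous reads came from 1 to 6 cells in the 5 mice with any.

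Leaving out a mouse gave between 4 and 6 called members. Efnb2, Sema3g and Efna1 were called in all 12 alternatives. Unc5b was not called without the female E18.5 mouse (adjusted p 0.0568) or the female P7 mouse (0.0502), and Ephb4 not with Arterial EC I alone (0.0901, edgeR). Sema3b was not called when any of the mice other than the male P7 mouse was left out (adjusted p 0.0649 to 0.170), nor without the low-count filter (0.0531).

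**Figure D2:**
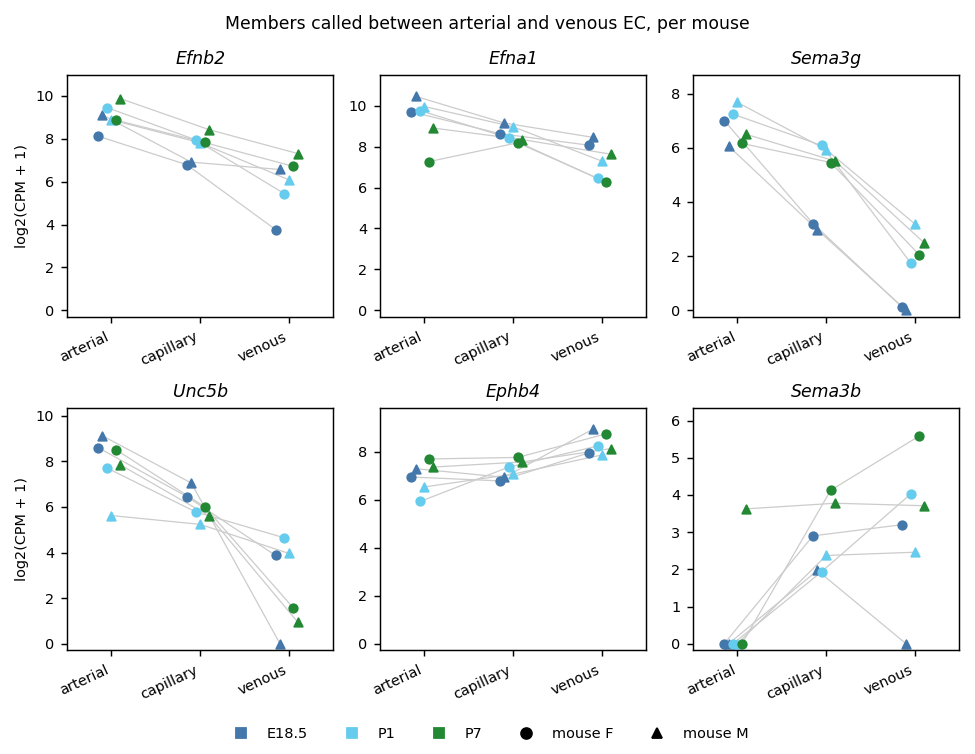
Level of the 6 members called between arterial and venous EC, as log2(CPM + 1), in arterial EC, capillaries (embryonic EC at E18.5, Car4- capillaries later) and venous EC; each point is 1 mouse (colour for age, circle for female and triangle for male) and lines join the classes of a mouse. Efnb2, Sema3g and Unc5b were highest in arterial EC and Ephb4 in venous EC in each of the 6 mice.

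Efnb2 in capillaries lay between its levels in arteries and veins. Capillaries here are the embryonic EC at E18.5 and the Car4- capillaries at P1 and P7. Efnb2 had 110, 225 and 343 CPM in capillaries; arterial EC were higher (log2 difference 1.51, SE 0.33, edgeR adjusted p 0.0239) and venous EC lower (-1.50, SE 0.34, edgeR adjusted p 0.0185), each in 6 of 6 mice. Ephb4 had 109, 148 and 215 CPM in capillaries, and venous EC were higher in 6 of 6 mice without overlap (1.12, SE 0.23, edgeR adjusted p 0.00927). Arterial EC, at 59.7 to 206 CPM of Ephb4, overlapped with capillaries and were not called different (edgeR adjusted p 0.815). Sema3g had 6.86, 43.7 and 66.8 CPM in capillaries, and venous EC were lower in 6 of 6 mice (-3.81, SE 0.85, edgeR adjusted p 0.0182). These were 3 of 53 members for venous EC (2.32% of all genes called) and, with Efna5, 2 of 53 for arterial EC (1.43% of all genes called), counts within a few genes of the background.

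Efna5, an ephrin-A ligand, was called as higher in arterial EC than in capillaries (edgeR adjusted p 0.00904), but its arterial values were uneven. They were 0.644 and 0 CPM before birth, 36.0 and 25.5 CPM at P1, and 73.7 and 1039 CPM at P7, female mouse first, while capillaries had at most 0.718 CPM. In the male P7 mouse 6 of 10 arterial cells had a read and 1 cell gave 70.0% of the reads, and without that mouse the call was lost (adjusted p 0.124). The arterial EC of that mouse also had the highest summed mural and fibroblast markers among arterial EC (126.5 and 119 CPM, against at most 34.5 and 21.4 CPM in the other mice), whose part in this value was not tested. The Efnb2 calls against capillaries were also lost without single mice. For arterial EC these were the male E18.5, male P1, female P7 and male P7 mice (adjusted p 0.0579 to 0.129), and for venous EC either P1 mouse or either P7 mouse (0.0624 to 0.0732). The other venous calls were lost without the male E18.5 mouse (Ephb4, adjusted p 0.0568), the female P1 mouse (Sema3g, 0.0930), the female P7 mouse (Ephb4, 0.0624, and Sema3g, 0.0735) or the male P7 mouse (Sema3g, 0.0592). RLE scaling in place of TMM moved the median of all genes between venous EC and capillaries by 0.11 on the log2 scale, less than any of these differences.

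Single cells often held reads of both partners of the ephrin pair, though less often in Car4+ capillaries and embryonic EC. In arterial EC 68.0% ± 15.1 (SD, n = 6 mice) of cells had reads of Efnb2 and Ephb4, 28.6% ± 9.8 of Efnb2 alone and 0.8% ± 2.0 of Ephb4 alone. In venous EC 54.2% ± 16.7 (n = 7) had both, 5.4% ± 6.1 Efnb2 alone and 35.9% ± 13.9 Ephb4 alone. The share with Efnb2 alone lay between 17.6% and 45.0% in arterial EC and between 0% and 15.4% in venous EC, so the mice did not overlap. Car4- capillaries had 51.4% ± 14.1 (n = 6) with both, proliferative EC 57.0% ± 13.6 (n = 6) and lymphatic EC 49.2% ± 11.1 (n = 3). The share with both was 31.3% ± 6.4 (n = 2) in embryonic EC. In Car4+ capillaries it was 22.4% ± 9.3 (n = 6), and 38.0% ± 11.4 of those cells had neither. These shares follow the reads per cell as well as the level, and no test was made on them.

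The other guidance receptors and signalling genes, a list of 59 genes that are not members, contributed 3 of 51 tested genes between arterial and venous EC. Nrp2, a neuropilin coreceptor of class 3 semaphorins known from veins and lymphatics, was lower in arterial EC (fitted log2 difference -7.08, SE 1.26, edgeR adjusted p 0.00262). Nrp1, the coreceptor known from arteries, was higher (0.87, SE 0.19, edgeR adjusted p 0.0139), and so was the integrin gene Itga1 (2.27, SE 0.47, edgeR adjusted p 0.00924). Against capillaries 1 of 51 was called for arterial EC (Met) and 4 of 51 for venous EC (Itga1, Arhgef15, Adam10 and Met).

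Among the pairs of classes compared here, edgeR called the most guidance genes between the 2 capillary types, and also the largest share of all genes. Car4+ and Car4- capillaries of the 6 normal-air mice of P1, P7 and P21 were compared with the mouse as a term. Sema6a, Sema3f, Sema3a, Sema7a, Plxna1 and Unc5b were higher in Car4+ capillaries, and Efnb2, Ephb4, Sema3g, Ntn1 and Efna4 were lower. These are 11 of 49 members tested (22.4%), where edgeR called 4.57% of all 14324 genes, with 24 members at an unadjusted p under 0.05. As above, the labels come from these cells. The median log2 difference was -0.40 over all genes and -0.61 over the tested members, so differences are to be read against that shift.

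The 3 genes higher in Car4+ capillaries with the smallest p were Sema6a, Sema3f and Plxna1. Reads were found in 90.9% to 100%, 74.0% to 96.6% and 29.4% to 77.2% of Car4+ cells per mouse, in that order. Sema6a had 464, 948 and 1116 CPM (lowest, median, highest) in Car4+ and 224, 313 and 356 CPM in Car4- capillaries, with no overlap and a log2 difference of 1.75 (SE 0.21, edgeR adjusted p 0.00159, 6 of 6 mice). Sema3f, a secreted ligand that signals through Nrp2, had 162, 214 and 256 CPM against 63.2, 92.6 and 128 CPM, also without overlap (1.47, SE 0.23, edgeR adjusted p 0.00625, 6 of 6 mice). Plxna1 had 70.8, 149 and 284 CPM against 15.7, 81.1 and 132 CPM. Its ranges overlapped between mice, but Car4+ capillaries were higher within each of the 6 mice (1.59, SE 0.32, edgeR adjusted p 0.0203). Unc5b had 70.9, 81.6 and 169 CPM against 16.9, 42.3 and 63.6 CPM (1.55, SE 0.34, edgeR adjusted p 0.0293), without overlap.

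Sema3a, the founding class 3 semaphorin, was low in both types. It had 5.85, 10.4 and 38.0 CPM in Car4+ and at most 2.79 CPM in Car4- capillaries (edgeR adjusted p 0.0251), and its reads came from 2 to 9 Car4+ cells per mouse, with 99.8% from 1 cell in the male P1 mouse. Sema7a, a semaphorin anchored to the membrane by a lipid, had the largest p of the 11 calls (log2 difference 2.27, edgeR adjusted p 0.0477) and is named after its values were seen, since values were set to be given for 10 genes. It had 93.0, 46.9, 50.2, 23.7, 64.6 and 51.8 CPM in the Car4+ capillaries of the P1, P7 and P21 mice, female before male. The Car4- capillaries of the same mice had 23.8, 54.8, 6.57, 9.92, 9.48 and 6.54 CPM. Car4+ capillaries were thus higher in 5 of 6 mice, the male P1 mouse being the exception.

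Genes of the ephrin-B axis were lower in Car4+ capillaries. Efnb2 had 34.1, 93.6 and 196 CPM in Car4+ and 224, 294 and 514 CPM in Car4- capillaries (log2 difference -1.51, SE 0.32, edgeR adjusted p 0.0260). Ephb4 had 30.0, 53.3 and 93.7 CPM against 133, 160 and 215 CPM (-1.43, SE 0.30, edgeR adjusted p 0.0262). Both were lower without overlap in 6 of 6 mice, so ligand and receptor differed in the same direction here and in opposite directions between arteries and veins.

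Ntn1 and Sema3g, both secreted ligands, were near 0 in Car4+ capillaries. Ntn1 had at most 1.67 CPM there against 13.4, 29.0 and 64.2 CPM in Car4- capillaries (edgeR adjusted p 0.0169). Sema3g had at most 1.65 CPM in 5 mice and 25.7 CPM in the female P21 mouse, where 1 cell gave 93.3% of the reads, against 42.8, 63.4 and 101 CPM (edgeR adjusted p 0.0232). Efna4, an ephrin-A ligand, had 1 read in all Car4+ capillaries and 0.0162, 6.02 and 32.8 CPM in Car4- capillaries (edgeR adjusted p 0.00913), from 2 to 12 cells per mouse. Fitted fold changes of these near-zero genes depend on the prior count and are not given.

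Leaving out a mouse gave between 5 and 8 called members: 5 without the female P1, male P7 or male P21 mouse, 6 without the female P7 mouse and 7 without the male P1 mouse. Sema6a, Sema3f and Ntn1 were called in all 12 alternatives. Efna4 was not called without the female P1 mouse (adjusted p 0.106), Plxna1 not without the female P1, male P7 or male P21 mouse (0.0567 to 0.0696) and Unc5b not without either P7 or either P21 mouse (0.0647 to 0.106). Efnb2, Ephb4, Sema3g and Sema3a were each not called without 4 or 5 of the 6 mice (adjusted p 0.0556 to 0.0956 by edgeR). Sema3a was also not called with the hyperoxia mice added (0.0754). The direction of these 10 genes held in all 12 alternatives.

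**Figure D3:**
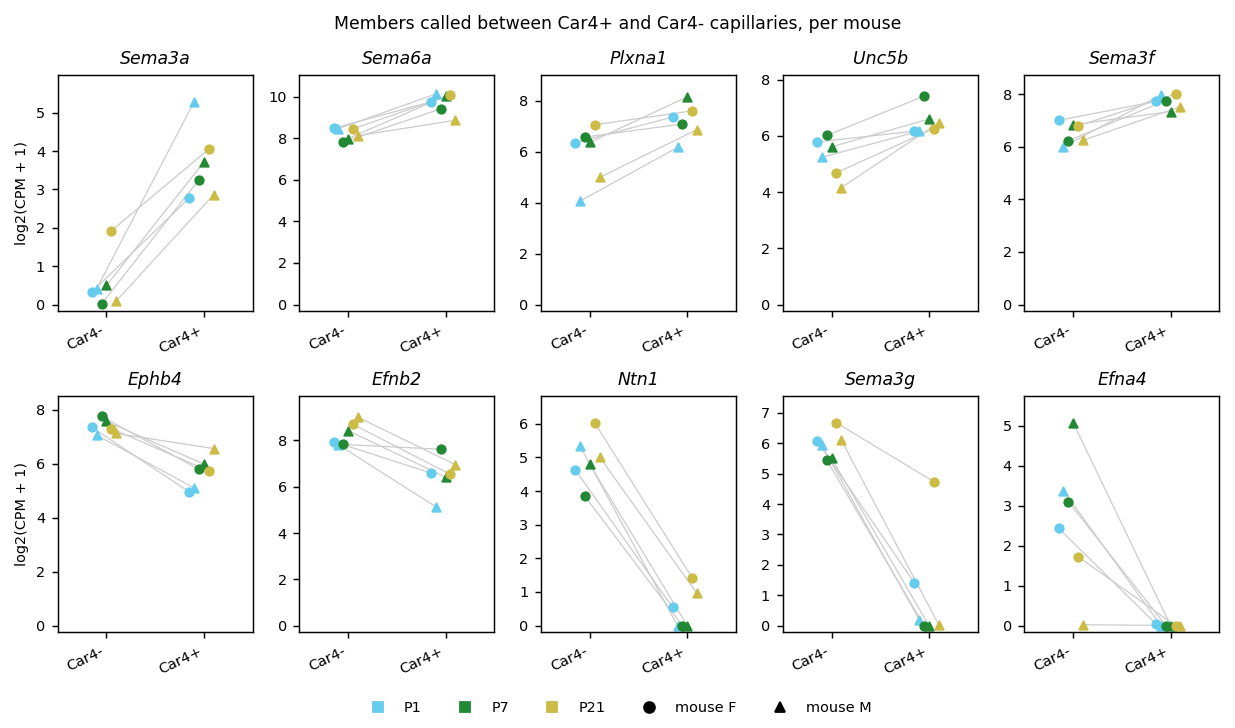
Level of the 10 members with the smallest p between Car4+ and Car4- capillaries, as log2(CPM + 1), one panel per gene; each point is 1 normal-air mouse (colour for age, circle for female and triangle for male) and lines join both types of a mouse. All lines rise from Car4- to Car4+ for Sema3a, Sema6a, Plxna1, Unc5b and Sema3f, and fall for Ephb4, Efnb2, Ntn1, Sema3g and Efna4.

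Of the other guidance genes 6 of 51 tested were called between the capillary types. Nrp1 was higher in Car4+ capillaries (log2 difference 1.79, SE 0.20, edgeR adjusted p 0.000977) and Nrp2 lower (fitted value -6.05, SE 1.20, edgeR adjusted p 0.0199). The Rac exchange factor Vav3 (1.35, SE 0.32, edgeR adjusted p 0.0404) and the small GTPase gene Rras (0.78, SE 0.18, edgeR adjusted p 0.0419) were higher, and Tiam1 and Itga1 lower.

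Lymphatic EC were compared with venous EC in the 4 mice with at least 8 cells of both, 3 in normal air and 1 under hyperoxia. The summed proliferative markers had 788 to 1115 CPM in lymphatic EC and 7.14 to 112 CPM in venous EC of these mice. The part of cycling cells in the values was not tested. Sema3d, a secreted class 3 semaphorin, was higher in lymphatic EC and was the only 1 of 49 members called, near the 2.34% of all 12789 genes that edgeR called. It had 38.0 CPM in the male E18.5, 266 and 184 CPM in the female and male P1 and 172 CPM in the female hyperoxia mouse, against 0, 5.12, 0.935 and 2.65 CPM in the venous EC of the same mice (edgeR adjusted p 0.0119). Reads of Sema3d were found in 8 of 10, 22 of 26, 13 of 13 and 13 of 14 lymphatic cells. Without either P1 mouse it was not called (adjusted p 0.0772 and 0.0916) and no member was; without the male E18.5 mouse 6 members were, and without the hyperoxia mouse 2.

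Other members high in lymphatic EC did not pass that test. Ntn1 had 100, 148, 255 and 260 CPM there, in the same order of mice, Unc5b 304, 268, 242 and 313 CPM, and Efna5 88.8, 219, 51.0 and 130 CPM. Ephb1, an EphB receptor, had 35.2, 108, 73.8 and 13.9 CPM. The edgeR adjusted p was 0.238 for Ntn1, 0.135 for Unc5b, 0.196 for Efna5 and 0.546 for Ephb1; these 4 were picked after their values were seen. The neuropilins moved in opposite directions: Nrp2 was higher (log2 difference 3.33, SE 0.38, edgeR adjusted p 0.00672) and Nrp1 lower in lymphatic than in venous EC (edgeR adjusted p 0.0424), the 2 of 51 other guidance genes called.

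Proliferative EC were compared with the noncycling capillaries of the same 6 mice. No member of 53 was called by edgeR (4 at an unadjusted p under 0.05; 1 by DESeq2, 0 by limma), where 1.14% of all 13816 genes were. The members with the smallest p and at least 5 CPM were Sema3b, Efnb1 and Ntng2. Efnb1, an ephrin-B ligand, had 70.8 ± 24.4 CPM in proliferative EC and 127 ± 57.7 CPM in capillaries (n = 6 mice, edgeR adjusted p 0.607) and was lower in proliferative EC of 6 of 6 mice, with overlapping ranges. Sema3b had 5.01 ± 10.5 and 7.60 ± 5.70 CPM (adjusted p 0.313) and Ntng2 2.05 ± 3.05 and 5.34 ± 4.97 CPM (adjusted p 0.647, edgeR).

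Around birth, Sema3c and Sema3g were lower and Plxnd1 higher in the embryonic EC of E18.5 than in the Car4- capillaries of P1, 3 of 57 members tested, where edgeR called 0.494% of 14967 genes. Age and subtype label change together in this comparison. Sema3c had 14.3 and 3.71 CPM in the female and male E18.5 mice and 401 and 189 CPM in those of P1 (log2 difference -5.09, SE 0.60, edgeR adjusted p 0.000915). Sema3g had 8.20 and 6.86 CPM in the E18.5 mice against 66.8 and 59.9 CPM at P1 (-3.16, SE 0.56, edgeR adjusted p 0.0198). Plxnd1 had 243 and 202 CPM in the E18.5 mice against 70.4 and 45.2 CPM at P1 (1.88, SE 0.39, edgeR adjusted p 0.0462). Both mice of one age lay beyond both of the other for each gene.

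The female E18.5 and P1 mice shared a sequencing run, and their cells of the CD31 gate (the sort on the endothelial protein CD31, which most cells carry) had 14.3 and 405 CPM of Sema3c, 8.20 and 64.6 CPM of Sema3g, and 243 and 72.0 CPM of Plxnd1. Sema3c was called in all 16 alternatives. Sema3g was lost without either E18.5 mouse (adjusted p 0.133 and 0.182) or the male P1 mouse (0.0550). Plxnd1 was lost in 13 of 16, without any one of the 10 mice (adjusted p 0.0604 to 0.319), so its call rests on the full set. The same direction was seen in other classes, as values that did not pass the test. Sema3c in proliferative EC had 9.80 and 2.87 CPM before birth, 312 and 30.1 CPM at P1 and 262 and 406 CPM at P7, and in venous EC 0 and 0.781, 60.1 and 28.4, and 44.2 and 113 CPM. Plxnd1 in proliferative EC had 229 and 160 CPM before birth, 73.7 and 22 CPM at P1 and 50.5 and 38.2 CPM at P7, and in venous EC 376 and 289, 88.8 and 73.0, and 84.2 and 128 CPM. Within shared runs Sema3c had 312 CPM at P1 and 9.94 CPM before birth in the proliferative EC of the female mice, and 456 CPM at P7 and 2.93 CPM before birth in those of the male mice.

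Across the postnatal ages Epha4 and Sema3c differed in Car4- capillaries, 2 of 55 members. The omnibus test of edgeR over P1, P7 and P21 called 0.348% of 14660 genes. Age and subtype label change together here too. Early Car4- capillaries were 160 of 181 and 120 of 122 cells at P1, and 162 of 206 and 114 of 116 at P7. Late Car4- capillaries were 268 of 272 and 265 of 268 cells at P21, so a change within a label was not tested. The P21 mice also had 65 and 120 cells, over all labels, from a gate labelled mesench. Epha4, a receptor that binds ephrins of both the A and B classes, had 21.8 and 13.1 CPM at P1, 34.6 and 34.1 CPM at P7, and 177 and 181 CPM at P21 (edgeR adjusted p 0.00966). Both P21 mice lay above all 4 younger mice. P21 was higher than P1 by 3.41 on the log2 scale (SE 0.45, edgeR adjusted p 0.0103) and than P7 by 2.503 (SE 0.43, edgeR adjusted p 0.0421). Reads of Epha4 were found in 120 of 272 and 80 of 268 cells at P21 and in 30 of 181 and 14 of 122 cells at P1. The lower and higher shares of cells were 14.56% and 31.03% at P7 and 29.85% and 44.12% at P21, so these ages overlapped in this share.

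Sema3c had 401 and 189 CPM at P1, 619 and 743 CPM at P7, and 1678 and 1355 CPM at P21 (edgeR adjusted p 0.0398), so that the ages did not overlap. P21 was higher than P1 by 2.42 (SE 0.40, edgeR adjusted p 0.0248). In these pairwise contrasts edgeR called 2 of 55 members for P21 against P1 (0.368% of all genes) and 1 for P21 against P7 (0.266% of all genes). Within shared runs and the CD31 gate, the female P21 and P1 mice had 160 and 22.3 CPM of Epha4 and 1685 and 405 CPM of Sema3c, and the male P21 and P7 mice 251 and 41.7 CPM and 1227 and 808 CPM. The summed lymphatic markers were also uneven over these ages, at 2270 and 2954 CPM at P1, 913 and 911 CPM at P7 and 1044 and 935 CPM at P21, and their part in these values was not tested. Among CD31-gate cells P7 and P1 share no run, so the run and that step cannot be told apart in them. Epha4 lost its age call without the male P21 mouse (adjusted p 0.0653) and with limma (0.0734), its P21 against P1 call without the male P1 or male P21 mouse (0.0575 and 0.0551), and its P21 against P7 call without any one of those 4 mice (0.0733 to 0.350). Sema3c lost its P21 against P1 call with limma and without the male P1, female P21 or male P21 mouse (0.0515 to 0.115). Sema3c lost its call over the 3 ages in 9 of 14 alternatives: with CD31-gate cells alone (0.0582), with sex as a term (0.0509) and without the male P1, either P7, the female hyperoxia or either P21 mouse (0.0507 to 0.177), among others. Of 53 other guidance genes Itga1 was called, with P21 higher than P1 by 2.36 (SE 0.40, edgeR adjusted p 0.0271).

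**Figure D4:**
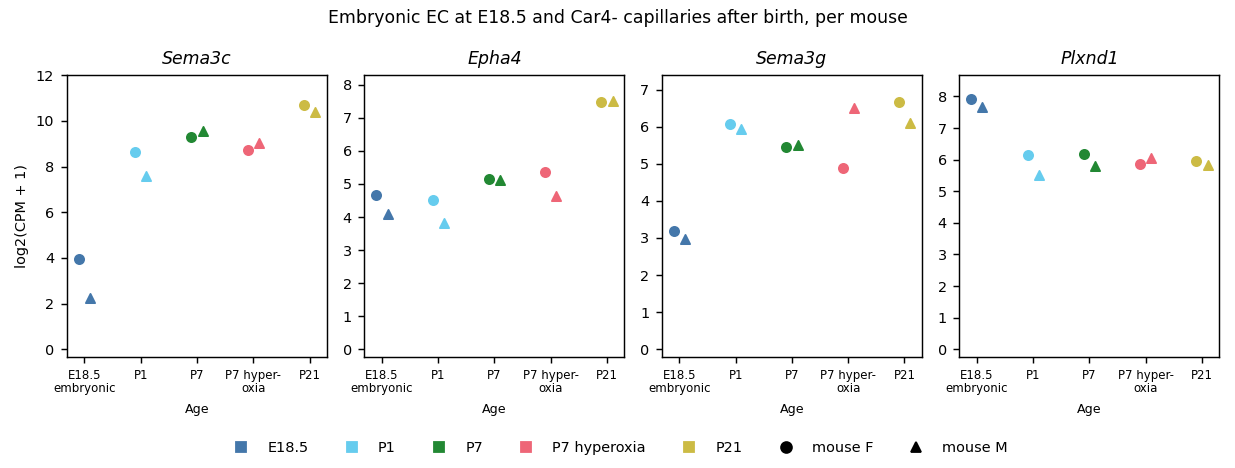
Level of Sema3c, Epha4, Sema3g and Plxnd1 as log2(CPM + 1) in embryonic EC at E18.5 and in Car4- capillaries at P1, P7, P7 under hyperoxia and P21; each point is 1 mouse (circle for female, triangle for male). Sema3c and Sema3g lie lowest and Plxnd1 highest at E18.5, and Epha4 lies near 180 CPM in both P21 mice.

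In the other classes the omnibus test over ages called no member. In Car4+ capillaries (P1, P7 and P21) edgeR called 0 of 38 members, with 2 at an unadjusted p under 0.05 (0 by DESeq2 and limma; 0.0163% of 12284 genes called). Epha4 had 24.4 and 12 CPM at P1, 15.7 and 9.05 CPM at P7 and 97.1 and 130 CPM at P21 there (edgeR adjusted p 0.775), so both P21 mice were again the highest. Within shared runs the female P21 and P1 mice had 116 and 25.98 CPM, and the male P21 and P7 mice 88.7 and 23.5 CPM. Sema5a, a transmembrane semaphorin, had 52.5 and 64.4, 6.75 and 0.129, and 18.1 and 119 CPM, and Sema6d 106 and 65.2, 173 and 304, and 125 and 147 CPM (edgeR adjusted p 0.798 each), with the P7 mice lowest for Sema5a and highest for Sema6d. In CD31-gate cells alone the male P7 mouse had 98.5 CPM of Sema6d, against 64.6 CPM in the male P21 mouse of its run. The female P1 and P21 mice had 113 and 127 CPM in that gate, so the male P7 mouse was not among the highest there.

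In proliferative EC (E18.5, P1 and P7) edgeR called 0 of 49 members, with 7 at an unadjusted p under 0.05 (2 by DESeq2, 0 by limma; 0.0305% of 13102 genes called). Sema3c (adjusted p 0.272), Plxnd1 (0.502) and Ntng2 (0.642) had the smallest edgeR p. Ntng2, a netrin-G gene whose membrane-anchored product does not bind the classical netrin receptors, had at most 0.304 CPM before birth, 0 CPM at P1, and 5.83 and 6.14 CPM at P7. Without the female P1 mouse 8 members were called in this class, and without the male P1 mouse 1; these mice had 13 and 9 proliferative cells.

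In venous EC edgeR called 0 of 44 members, with 5 at an unadjusted p under 0.05 (3 by DESeq2, 0 by limma; 0.00811% of 12326 genes called). Besides Sema3c (edgeR adjusted p 0.450) and Plxnd1 (0.465), the Robo ligand Slit3 was at 0 CPM in both E18.5 mice, 29.8 and 5.36 CPM at P1, and 17.4 and 15.3 CPM at P7 (adjusted p 0.559). Without the female E18.5 mouse 3 members were called, and without the male E18.5 mouse 1.

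In arterial EC edgeR called 0 of 41 members, with 8 at an unadjusted p under 0.05 (2 by DESeq2, 0 by limma; 0.0167% of 11951 genes called). Efna5, whose values are given above, had an adjusted p of 0.0924 by edgeR. Leaving out any of the 8 mice gave 1 or 2 called members. Plxna4, a class A plexin, was at 0 CPM in both E18.5 mice, 31.6 and 4.43 CPM at P1, and 19.4 and 35.2 CPM at P7 (edgeR adjusted p 0.875). Efna1 had 836 and 1410 CPM before birth, 867 and 996 CPM at P1, and 153 and 479 CPM at P7 (edgeR adjusted p 0.875), with both P7 mice below the 4 younger ones.

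The hyperoxia mice were set against the P7 mice in normal air, 2 against 2, to ask how raised oxygen changes these families. No member passed the test in any of the 5 classes. The summed list of 6 lymphatic markers differed between these mice: it had 4253 and 3930 CPM under hyperoxia and 913 and 911 CPM in normal air in Car4- capillaries, 2700 and 2297 against 593 and 1342 CPM in Car4+ capillaries, 3395 and 4145 against 782 and 1451 CPM in arterial EC, and 3044 and 2743 against 1208 and 1041 CPM in proliferative EC. In venous EC the mice overlapped, with 2277 and 1825 against 1961 and 1688 CPM. Most of each sum was Lyve1 (4023 and 3633 against 825 and 732 CPM in Car4- capillaries), while Prox1, the defining transcription factor of lymphatic EC, was at most 0.0411 CPM in the Car4- capillaries of these 4 mice and Ccl21a was at 0. The part of these markers in the values below was not tested. In Car4- capillaries edgeR called 0 of 55 members, with 7 at an unadjusted p under 0.05 (1 by DESeq2, 0 by limma; 0.0136% of 14660 genes called). Sema3b had 2.12 and 0.934 CPM under hyperoxia and 16.5 and 12.7 CPM in normal air. Plxna2, a class A plexin, had 45.6 and 70.4 CPM against 23.2 and 15.5 CPM, and Unc5b 106 and 118 CPM against 63.6 and 47.9 CPM (edgeR adjusted p 0.887 for each of the 3). For these genes neither hyperoxia mouse overlapped with the normal-air mice, and the male mice that shared a run had the same order, with 0.934 and 16.3 CPM of Sema3b, 70.4 and 14.8 CPM of Plxna2 and 118 and 58.1 CPM of Unc5b under hyperoxia and in air.

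In Car4+ capillaries edgeR called 0 of 38 members, with 1 at an unadjusted p under 0.05 (0 by DESeq2 and limma; 0% of 12284 genes called). That 1 was Sema6a, the leading semaphorin of these cells, with 189 and 355 CPM under hyperoxia and 679 and 1038 CPM in normal air (log2 difference -1.95, SE 0.57, edgeR adjusted p 0.731). Both hyperoxia mice also lay below the lowest of the 6 normal-air mice, 464 CPM. The male mice of the shared run had 355 and 873 CPM in their CD31-gate cells; in the male air mouse 1 of 24 cells gave 45.6% of the reads. Sema6d had 75.8 and 164 CPM against 173 and 304 CPM, but within the shared run 164 CPM under hyperoxia and 98.5 CPM in air, the opposite order. Efna1 had 365 and 334 CPM against 150 and 143 CPM, and 334 and 270 CPM within the run (edgeR adjusted p 0.731 for both genes).

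In proliferative EC edgeR called 0 of 49 members, with 2 at an unadjusted p under 0.05 (3 by DESeq2, 0 by limma; 0% of 13102 genes called). Plxna2 had 39.3 and 52.9 CPM under hyperoxia and 7.91 and 5.03 CPM in normal air (edgeR adjusted p 1.0), again higher in both hyperoxia mice. Efna5 had 30.3 and 0.440 CPM against 0 CPM in both air mice, and Efna2, an ephrin-A ligand, 12.5 and 0.0440 CPM against 0.0165 and 0.112 CPM. Each of these 2 rested on 2 cells of the female hyperoxia mouse.

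In venous EC edgeR called 0 of 44 members, and also 0 at an unadjusted p under 0.05 (0 by DESeq2 and limma; 0% of 12326 genes called). Unc5b had 24.3 and 30.6 CPM under hyperoxia and 1.97 and 0.931 CPM in normal air, from 7 and 4 cells against 1 and 2 cells. Slit2 had 30.5 and 11.1 CPM against 83.0 and 27.2 CPM, with overlap, and Sema3b 7.49 and 0.869 CPM against 47.2 and 12.1 CPM (edgeR adjusted p 1.0 for each). Unc5b thus had larger values in both hyperoxia mice in Car4- capillaries and in venous EC, and passed the test in neither.

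In arterial EC edgeR called 0 of 41 members, with 3 at an unadjusted p under 0.05 (0 by DESeq2 and limma; 0% of 11951 genes called). Efna1 had 1217 and 1362 CPM under hyperoxia and 153 and 479 CPM in normal air (log2 difference 2.12, SE 0.63, edgeR adjusted p 1.0), and 1807 and 479 CPM in the male mice of the shared run. The hyperoxia values lay within the range of the E18.5 mice (836 and 1410 CPM). Plxnb1, a receptor of Sema4d, had 30.0 and 93.8 CPM against 2.44 and 1.14 CPM, from 6 and 2 cells against 3 and 1. Unc5a was at 0 CPM under hyperoxia and had 16.7 and 6.06 CPM in air, from 1 cell in each mouse.

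**Figure D5:**
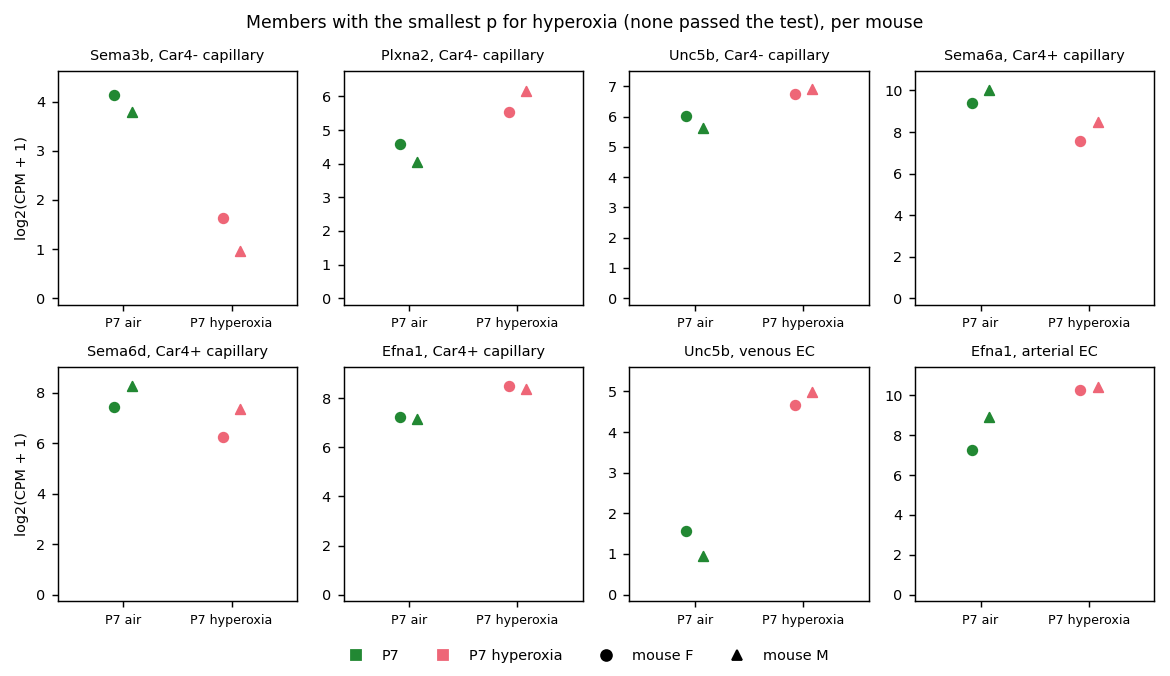
Level of 8 of the member and class pairs named above for hyperoxia, as log2(CPM + 1), in P7 mice in air and under hyperoxia. Each point is 1 mouse (circle for female, triangle for male). Both hyperoxia mice lie on one side of both air mice in every panel, but no member passed the test after adjustment. The named pairs that overlapped, Slit2 in venous EC and Efna2 in proliferative EC, are not shown. The separation thus follows from the choice of panels and is no support for an effect.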

How the data were processed

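Each deposited sample is 1 sorted cell of mouse distal lung; the authors' table holds raw read counts per gene (18072 genes, plate-based Tn5 libraries without molecular identifiers, so that reads are not independent molecules). The submitters' processing notes name STAR 2.5.2b, HTSeq 0.10 and, for these mouse symbols, GRCh38, with no role given. Cells held 42095 to 2967985 reads (median 621406). Reads of each subtype label were summed per mouse with at least 8 cells of a class. Sums were tested with edgeR 4.0.16 (R 4.3.3; quasi-likelihood, TMM, filterByExpr), with Benjamini-Hochberg adjustment over all genes tested and a threshold of 0.05. Class comparisons had the mouse as a term; ages and hyperoxia were fitted per class over 2 mice a group. The fits of the capillary types and of the ages in Car4- capillaries were run on counts simulated with the same spread for every gene. That simulation had no differences between mice and no genes with most reads in 1 cell, so it does not cover these. Values per kilobase use merged exons of GENCODE M21 (GRCm38). Named are members past the threshold (at most the 10 with the smallest p) and, where none passed, up to 3 with the smallest p and at least 5 CPM, plus the leaders of each family. Alternatives were DESeq2 1.42.0, RLE scaling, no low-count filter, CD31-gate cells alone, limma 3.58.1 on log2(mean CPM over cells + 1), sex as a term, Arterial EC I alone, hyperoxia mice added, and leaving out each mouse. Sequencing runs (9 by label) overlap with age in part. Members, lists and tests were chosen with earlier results of these data known. Proliferative venous EC (10 cells) entered no comparison.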

Additional observations from a re-analysis of the deposited data

Results flagged for a closer look

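Dixon's criterion flags about 5% of groups by chance where values are normally distributed. Here CPM of often sparse genes entered, and a group at 0 in all mice but 1 is always flagged. The groups also share genes and mice, so the count cannot be read against 5%. In 45 groups of 4 to 6 mice, 11 had a lowest or highest mouse set far apart from the others by this criterion. In Car4+ capillaries these were Unc5b at 169.5 CPM in the female P7 mouse, Sema3a at 38.0 CPM in the male P1 mouse, Sema3g at 25.7 CPM in the female P21 mouse and Efna4 at 0.0285 CPM (1 read) in the female P1 mouse. In Car4- capillaries they were Efna4 at 32.8 CPM in the male P7 mouse and Sema3a at 2.79 CPM in the female P21 mouse. The male P7 mouse also stood apart with Efna5 at 1039 CPM in arterial EC and 0.718 CPM in capillaries, and with Sema3b at 11.4 CPM in arterial EC and 26.3 CPM in proliferative EC. Sema3b at 47.2 CPM in the venous EC of the female P7 mouse was the last. The male P7 mouse had the fewest reads of the 10 mice (56564316, median 188610 per cell), and its summed mural and fibroblast markers were 126.5 and 119 CPM in arterial EC and 225 and 109 CPM in proliferative EC. In the other mice these mural sums were at most 34.5 and 35.3 CPM, while the fibroblast sum reached 305 CPM in the proliferative EC of the male P1 mouse. The part of depth and of these markers in the values was not tested.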

How the results depend on the processing

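DESeq2 called more members than edgeR: 21 for Car4+ against Car4- capillaries, 11 for arterial against venous EC, 8 for arterial EC and 10 for venous EC against capillaries, 14 for lymphatic against venous EC, 1 for proliferative EC, 8 around birth, 5 for the ages in Car4-, 2 in proliferative, 3 in venous and 2 in arterial EC, and for hyperoxia 1 in Car4- capillaries and 3 in proliferative EC. Limma called 6 for venous EC against capillaries, 7 for lymphatic EC, 1 around birth and 0 for the ages in Car4- capillaries, where CD31-gate cells alone and sex as a term gave 1 each. Without the low-count filter 3 were called for lymphatic EC and, for the ages, 1 in proliferative, 2 in venous and 2 in arterial EC. Leaving out a mouse gave 5 to 8 for the capillary types, 4 to 6 for arterial against venous EC, 0 to 2 for arterial EC (0 without the male P7 mouse) and 0 to 3 for venous EC (0 without the female P7 mouse) against capillaries, 0 to 6 for lymphatic EC, 1 to 2 around birth, and for the ages 0 to 2 in Car4-, 0 to 8 in proliferative, 0 to 3 in venous and 1 to 2 in arterial EC. It gave 0 for proliferative EC, the ages in Car4+ capillaries and hyperoxia in the 5 classes. Efna2 under hyperoxia in proliferative EC changed direction without the female hyperoxia mouse, to a log2 difference of -0.19, and was 8.26 without the male P7 mouse. The cause of these differences was not tested. Sex as a term, which pairs the female and the male mice across ages, is the fit with 1 call given above for Car4- capillaries; class comparisons already hold the mouse as a term. With 2 mice a group and sums from 9 cells upward, the reads of low members often came from 1 or 2 cells of a mouse.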
